A study of Homo sapiens with 5 samples.

Results

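Transcript levels of 10 genes that encode folding factors of the endoplasmic reticulum (ER) and transcription factors of its stress response were compared between HEK293T cells given ascorbic acid (vitamin C) and control HEK293T cells. The genes were taken by symbol from a count table of 28278 gene symbols, and all 10 were found. They are the lumenal chaperones HSPA5, HYOU1 and HSP90B1, the lectin chaperones CALR and CANX, the disulfide isomerases PDIA3, PDIA4 and PDIA6, and the transcription factors XBP1 and DDIT3. HEK293T is an established human embryonic kidney line that carries viral early genes. The 3 control libraries are labelled Ctrl and wild type, and the 2 treated libraries are labelled as given ascorbic acid. No dose is stated. Cells of both groups were seeded for 24 h, and the protocol lists a treatment of 24 h for one kind of test and 36 h for another, with fresh medium every 6 h, without saying which applied here. The same culture medium with serum and antibiotics is described for all libraries. Nothing in the labels says whether the libraries are separate cultures. The p-values therefore reflect the spread among 5 libraries, possibly technical only, and both groups stand for 1 cell line.

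Libraries held 35106664 to 57212071 gene counts. In each library 71.3 to 75.9% of the counts from 1 to 10 were even, a pattern that arises where each end of a fragment is counted, and counting error then exceeds what the counts show. Levels are given as CPM (counts-per-million) on totals scaled by the trimmed mean of M-values (TMM). Of 6 genes taken as markers of HEK293 cells (NEFL, NEFM, NES, INA, VIM and PAX2) all were tested. They summed to 845 to 881 CPM in the controls and 923 to 969 CPM in the treated libraries, nearly all of it VIM, and NEFM (0.75 ± 0.07) and NES (0.72 ± 0.14) rose. The other 4 did not pass the edgeR test described below, and PAX2 was at 0.585 to 0.660 CPM over all libraries. Of 6 kidney tubule markers, the proximal tubule gene LRP2 was at 29 to 31.1 CPM in the controls, CUBN and AQP1 were at 0.368 to 1.17 CPM over all libraries, and the proximal transporter genes SLC34A1 and SLC22A6 and the thick ascending limb gene UMOD had 0 counts in every library.

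The ER folds secreted and membrane proteins. The Hsp70 protein BiP, encoded by HSPA5, binds unfolded chains, lectin chaperones hold glycoproteins that still carry a glucose, and disulfide isomerases form and rearrange the bonds between cysteines. When unfolded protein builds up, the sensors IRE1, ATF6 and PERK start the unfolded protein response. IRE1 splices XBP1 mRNA, ATF6 is cut to a transcription factor, and PERK slows translation while favouring ATF4, which can raise DDIT3 (CHOP). ATF6 and spliced XBP1 act on chaperone genes through ER stress response elements (ERSE) in their promoters, together with the CCAAT-binding factor NF-Y. In cells making collagen, the same compartment holds the ascorbate-dependent prolyl and lysyl hydroxylases. Counts per gene do not separate spliced from unspliced XBP1 mRNA.

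Promoter windows are shown first, as a description only. The 10 genes were chosen as genes of the unfolded protein response, so matches to ER stress response elements could follow from that choice. Whether the elements bear on the falls was not tested. RefSeq windows from 250 bases before to 50 bases after a transcription start (GRCh38.p14) were given for 9 of the 10 genes, PDIA3 being the other. Exact matches to ERSE (CCAAT, any 9 bases, then CCACG) or ERSE-II (ATTGG, any 1 base, then CCACG) were searched on both strands. At least 1 was found in 7 of the 9 genes, namely HSPA5, HSP90B1, CALR, CANX, PDIA6 and XBP1 for ERSE and HYOU1 for ERSE-II. Over the whole promoter table, 0.077% of 35116 windows held an ERSE and 0.054% held an ERSE-II. Capitals below mark the matched element, and every sequence runs 5′ to 3′ on the strand of its gene. The windows of HSPA5 (chr9:125241344-125241593, minus strand), HYOU1 (chr11:119057206-119057455, minus strand) and XBP1 (chr22:28800598-28800819, minus strand) lie before the annotated gene and stand for BiP, its exchange factor and the transcription factor of the response.
HSPA5: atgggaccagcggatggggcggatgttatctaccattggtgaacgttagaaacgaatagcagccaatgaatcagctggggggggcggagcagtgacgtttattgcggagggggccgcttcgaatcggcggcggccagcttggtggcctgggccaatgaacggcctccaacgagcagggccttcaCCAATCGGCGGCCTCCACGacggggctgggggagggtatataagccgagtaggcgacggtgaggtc
HYOU1: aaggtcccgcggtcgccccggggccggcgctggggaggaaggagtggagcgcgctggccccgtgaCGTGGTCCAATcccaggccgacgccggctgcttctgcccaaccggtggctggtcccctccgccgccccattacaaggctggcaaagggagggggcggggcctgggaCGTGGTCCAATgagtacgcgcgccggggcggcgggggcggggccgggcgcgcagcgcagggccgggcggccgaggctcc
XBP1: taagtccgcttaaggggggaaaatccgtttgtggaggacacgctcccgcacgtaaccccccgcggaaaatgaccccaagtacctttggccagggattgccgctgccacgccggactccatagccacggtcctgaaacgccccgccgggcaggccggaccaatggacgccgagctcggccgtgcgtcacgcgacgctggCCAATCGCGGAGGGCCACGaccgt
The printed stretch of XBP1 has 222 bases and ends 29 bases before the RefSeq start, because bases inside the annotated gene were left off. The element of HSPA5 ended 48 bases before the start and that of XBP1 34 bases before it, while HYOU1 held the element at 2 places that are read on the opposite strand. The other exact matches, each with 5 flanking bases, are those of CALR (chr19:12938379-12938407, opposite strand), CANX (chr5:179698773-179698801), HSP90B1 (chr12:103930211-103930239 and, on the opposite strand, chr12:103930316-103930344) and PDIA6 (chr2:10812848-10812876, at the second of 2 listed starts). Those of CANX, HSP90B1 and PDIA6 lie inside the annotated gene. The CANX match lies before some of its listed starts (-151 to -133 and -189 to -171) and across another (-9 to 9).
CALR: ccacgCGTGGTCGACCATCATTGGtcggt
CANX: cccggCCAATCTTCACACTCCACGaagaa
HSP90B1, distal: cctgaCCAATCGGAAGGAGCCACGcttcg
HSP90B1, proximal: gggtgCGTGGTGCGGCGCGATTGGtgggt
PDIA6: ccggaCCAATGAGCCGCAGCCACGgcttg
No exact match to these letters was found in the windows of PDIA4 and DDIT3. DDIT3 held 2 overlapping stretches with 9 of the 10 fixed letters of ERSE, one on each strand (chr12:57520591-57520619 and chr12:57520581-57520609), a search added after the exact one. HSP90B1 held 2 such stretches and HYOU1 held 1 besides their exact matches, and 1.48% of all windows held at least 1.
DDIT3, gene strand: cggggCCAATGCCGGCGTGCCACTttctg
DDIT3, opposite strand: gccggCGTGCCACTTTCTGATTGGtaggt
Of the other elements searched, UPRE (TGACGTGG, in 0.729% of windows) was found in HYOU1 alone among the 9 genes, where it overlapped the distal ERSE-II. TGACGTGA (0.450% of windows) and the composite element of ATF4 and C/EBP factors (TGATGNAAN, 3.61%) were found in 0 of the 9 genes' windows. Sites more than 250 bases before a start were not searched, so elements there would be missed. A match of letters is a description of the window and shows no binding. Of 25 other tested genes with an exact ERSE or ERSE-II match, 2 were called lower and 3 higher.

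**Figure D1:**
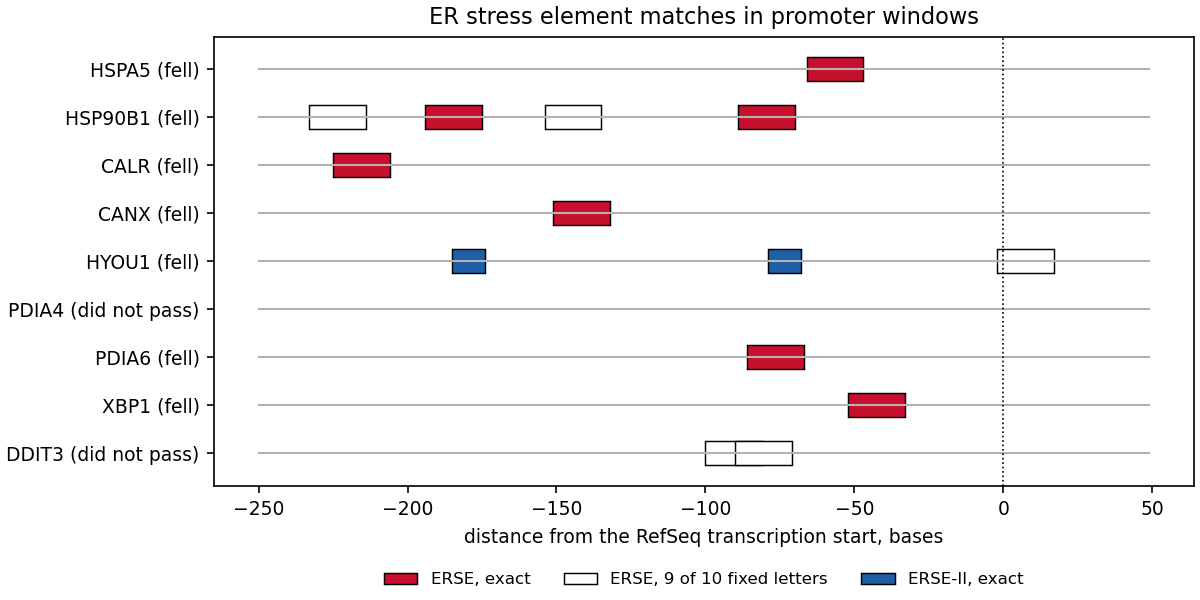
Positions of ERSE and ERSE-II matches in the promoter windows of 9 genes, in bases from the RefSeq transcription start (dotted line; bases before it are negative), with filled boxes for exact matches and open boxes for 9 of the 10 fixed letters. Exact matches lie in the windows of 7 genes and in those of neither PDIA4 nor DDIT3. DDIT3 holds stretches with 9 of the 10 fixed letters. The genes were chosen as genes of this response, and no link between matches and falls was tested.

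Of the 10 genes 7 fell with ascorbic acid and 0 rose (edgeR's quasi-likelihood test, Benjamini-Hochberg adjustment over 15271 tested genes, threshold 0.05). DESeq2 and limma-voom also found 7 lower and 0 higher, and at an unadjusted p under 0.05 in edgeR the counts were again 7 and 0. All 10 passed the filter on low counts. Over all tested genes 5.76% were called lower and 8.53% higher. The median log2 fold change was -0.198 over the 10 genes and 0.003 over all tested genes. The falls were small, from 9.35% for HSP90B1 to 15.6% for HYOU1, and none passed a test against a fold of 1.2 (glmTreat in edgeR, 0 of 10, and 0 at an unadjusted p under 0.05). Together the 10 genes made up 0.453 to 0.476% of scaled counts in the controls and 0.403 to 0.414% in the treated libraries. In a bulk sample, fewer cells with a transcript and less transcript per cell cannot be told apart.

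HSPA5 (chromosome 9, 125234853 to 125241330, GRCh38) encodes BiP, the ER Hsp70 that also holds the stress sensors inactive. It had 599.5, 565 and 561 CPM in controls 1 to 3 and 524 and 491 CPM in treated 1 and 2. Both treated libraries lay below all controls. The group means were 575 ± 21.3 CPM (SD, n = 3) and 508 ± 23.6 CPM (SD, n = 2), which is -0.18 ± 0.05 (SE) on the log2 scale (edgeR adjusted p = 0.00822). The call ended without control 1 (-0.14, adjusted p = 0.0654) and without treated 2 (-0.14, adjusted p = 0.0754).

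HYOU1 (chromosome 11, 119044189 to 119057202) encodes GRP170, a large Hsp70 relative that exchanges the nucleotide bound to BiP. Controls 1 to 3 held 262, 253 and 253 CPM and treated 1 and 2 held 221 and 211 CPM. The highest treated library was 12.5% below the lowest control, the widest such gap among the 10 genes. HYOU1 fell by 0.24 ± 0.05 on the log2 scale (edgeR adjusted p = 0.000417), with means of 256 ± 5.23 CPM (SD, n = 3) in the controls and 216 ± 6.93 CPM (SD, n = 2) after treatment.

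HSP90B1 (chromosome 12, 103930107 to 103953645) encodes GRP94, the Hsp90 of the ER, which folds integrins and Toll-like receptors. It had 695, 687 and 699 CPM in the controls and 607 and 652 CPM in treated 1 and 2. The groups did not overlap, but the treated libraries stood further apart from each other than the controls did. Its means were 694 ± 6.20 CPM (SD, n = 3) and 629 ± 31.9 CPM (SD, n = 2), and HSP90B1 fell by 0.14 ± 0.04 on the log2 scale (edgeR adjusted p = 0.0312). This call ended without control 1, 2 or 3 (adjusted p = 0.0860 to 0.0907) and without treated 1 (-0.09, adjusted p = 0.257).

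CALR (chromosome 19, 12938578 to 12944489) encodes calreticulin, the soluble lectin chaperone and a calcium store of the ER. It had 884, 831 and 822 CPM in the controls against 761 and 681 CPM in treated 1 and 2, again with no overlap. The control mean was 845 ± 33.7 CPM (SD, n = 3) and the treated mean 721 ± 56.7 CPM (SD, n = 2), and CALR fell by 0.23 ± 0.05 on the log2 scale (edgeR adjusted p = 0.00173). Of the 10 genes CALR had the largest difference in level per length between groups, from 444 to 379 CPM per kilobase of its longest transcript.

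CANX (chromosome 5, 179678628 to 179730925) encodes calnexin, the membrane-bound lectin chaperone. It had 1306, 1252 and 1218 CPM in the controls and 1081 and 1088 CPM in the treated libraries. The treated libraries nearly coincided and lay 10.7% or more below the lowest control. CANX fell by 0.21 ± 0.04 on the log2 scale (edgeR adjusted p = 0.00137), with a control mean of 1259 ± 44.0 CPM (SD, n = 3) and a treated mean of 1085 ± 5.23 CPM (SD, n = 2).

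The 3 disulfide isomerases did not share one result. PDIA6 (chromosome 2, 10783391 to 10837977), known to bind BiP and to act on IRE1, had 233, 229 and 223 CPM in the controls and 213 and 199.9 CPM in the treated libraries. It fell by 0.14 ± 0.05 on the log2 scale (edgeR adjusted p = 0.0360). That call ended without control 1, without control 2 and without treated 2 (adjusted p = 0.123 to 0.208). PDIA3 (chromosome 15, 43746392 to 43773279) encodes ERp57, the isomerase that works with calreticulin and calnexin. It had 418, 403 and 395 CPM against 391 and 380.0 CPM, with a log2 fold change of -0.07 ± 0.04 that did not pass (edgeR adjusted p = 0.294). PDIA4 (chromosome 7, 149003062 to 149028641) encodes ERp72. It had 274, 264 and 270.2 CPM against 263 and 252 CPM, with a log2 fold change of -0.06 ± 0.04 that did not pass (edgeR adjusted p = 0.360). In both of these genes the treated libraries lay below every control, but by 0.922% for PDIA3 and 0.298% for PDIA4. Whether the isomerases differ from the chaperones in their change was not tested.

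XBP1 (chromosome 22, 28794555 to 28800597) encodes the transcription factor that IRE1 activates by splicing. It had 88.6, 85.3 and 87.1 CPM in the controls and 72.9 and 75.5 CPM in the treated libraries, which were 11.5% or more below the lowest control. XBP1 fell by 0.23 ± 0.05 on the log2 scale (edgeR adjusted p = 0.00288), and its means were 87.0 ± 1.67 CPM (SD, n = 3) and 74.2 ± 1.84 CPM (SD, n = 2). DDIT3 (chromosome 12, 57516588 to 57521737) encodes CHOP, a factor that promotes cell death in prolonged ER stress. It was low, with 3.68, 3.97 and 5.37 CPM in the controls and 3.69 CPM in each treated library, so the groups overlapped. Its log2 fold change of -0.22 ± 0.16 did not pass (edgeR adjusted p = 0.397), and was -0.05 without control 3. The counts behind DDIT3 were 207, 151 and 186 in controls 1 to 3 against 179 and 158 in treated 1 and 2, the fewest of the 10 genes.

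**Figure D2:**
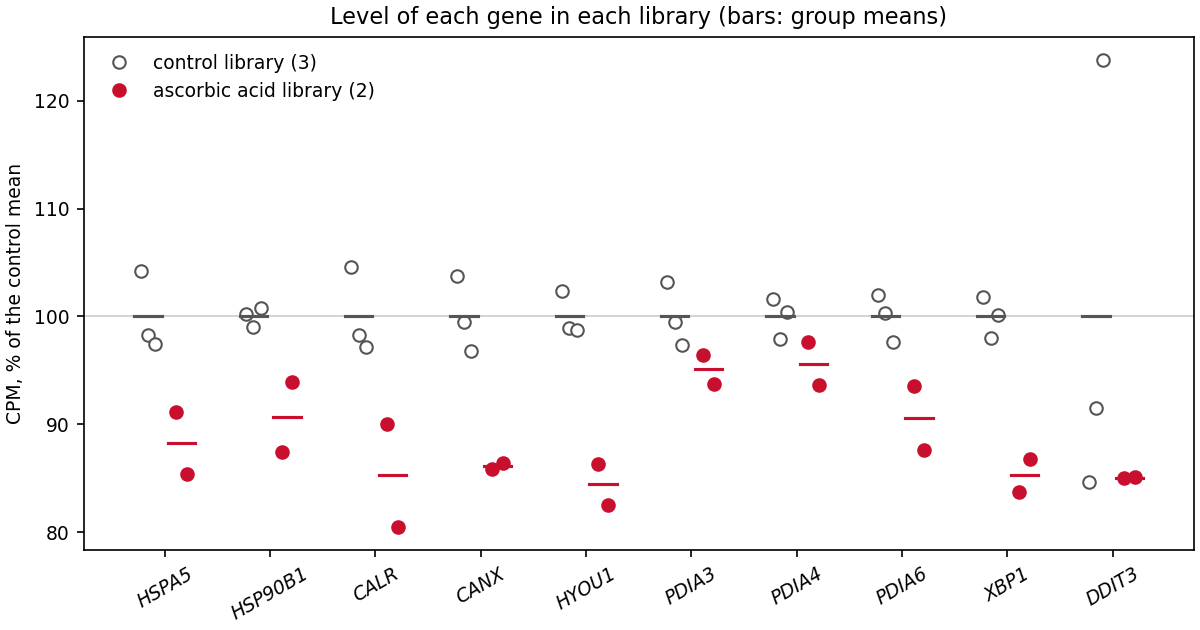
CPM of each of the 10 genes in each library, as percent of that gene's control mean, with open points for the 3 control libraries, filled points for the 2 ascorbic acid libraries and bars for group means (the axis does not start at 0). The treated points lie below all control points for 9 genes and among them for DDIT3, and the treated means run from 84.4% for HYOU1 to 95.6% for PDIA4.

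For 9 of the 10 genes both treated libraries lay below all controls, where this held for 20.4% of all tested genes. The change over all genes depended on level. Among the 2402 tested genes with a mean below 1 CPM the median log2 change was 0.209, and among the 913 with at least 200 CPM it was -0.073. Of those 913 genes 20.5% were called lower, 2.63% were called higher and 51.4% had both treated libraries below all controls. The 8 of the 10 genes at that level (all but XBP1 and DDIT3) had 6 called lower, 8 without overlap and a median of -0.161. PDIA3 (-0.07) and PDIA4 (-0.06), which were not called, lay near the median of all tested genes at that level. Below 200 CPM 4.82% of tested genes were called lower, and from 50 to 200 CPM, where XBP1 lay, 10.6% were. XBP1 was called lower and DDIT3 was not. When a trend with level was removed by cyclic loess before a limma test, which changes the test as well as the scaling, 4 of the 10 were called, CALR (-0.15), CANX (-0.13), HYOU1 (-0.19) and XBP1 (-0.20), and the median over the 10 was -0.117. The same 4 genes were called in 16 of the 17 alternative settings, the test against a fold of 1.2 being the other.

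**Figure D3:**
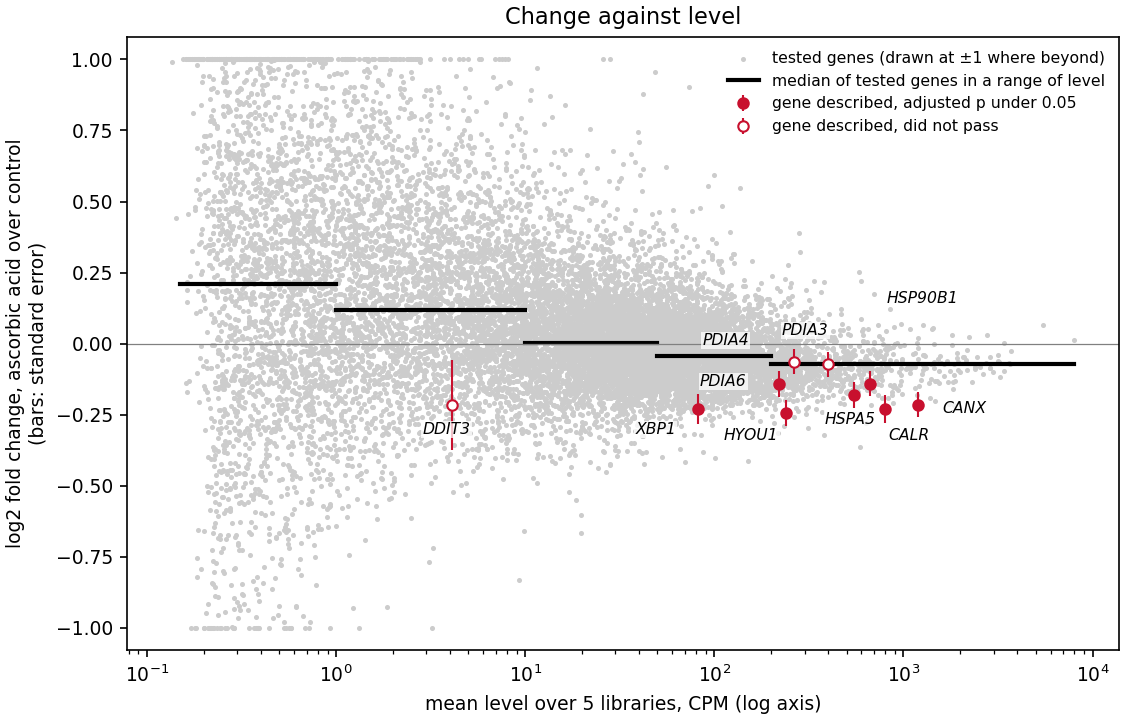
Log2 fold change (ascorbic acid over control) against mean level in CPM on a log axis for 15271 tested genes (grey), with black bars for the median in 5 ranges of level and red points with standard errors for the 10 genes, filled where adjusted p was under 0.05. Of the 8 genes at 200 CPM or more, PDIA3 (-0.07) and PDIA4 (-0.06) lie near the median of tested genes there (-0.073). The other 6 lie below it.

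Per kilobase of the longest annotated transcript, control levels ran in the order CALR (444 CPM per kilobase), CANX (295), HSP90B1 (229), HSPA5 (147), PDIA3 (109), PDIA4 (92.7), PDIA6 (85.1), HYOU1 (56.5), XBP1 (40.0) and DDIT3 (4.07). No 2 neighbours in that order overlapped between their control libraries. The order was the same per kilobase of all annotated exons, where HSP90B1 (148) and HSPA5 (147) were nearly level. Some exons are shared with genes on the other strand, and whether strand was used in the counting is not given in the sources used here. DDIT3 shares 27.2% of its exon bases with MARS1, a methionyl-tRNA synthetase gene at 319.7 ± 10.0 CPM in the controls (SD, n = 3), so part of its few counts may belong there, which was not tested. PDIA6 shares 25.2% with ATP6V1C2 (1.73 CPM in the controls) and PDIA3 14.8% with ELL3 (2.61 CPM), both far below their partner. PDIA3 also has 2 named pseudogenes, of which 1 is in the count table, and XBP1 has 1.

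Other genes of the pathway were taken in 8 lists that exclude the 10 genes. Of the 161 tested genes 24 fell and 7 rose, with a median log2 fold change of -0.05. These genes are more highly expressed than most, so shares are given by level. At 200 CPM or more 5 of 26 were called lower (19.2%), about the 20.5% of all tested genes there. From 50 to 200 CPM 14 of 74 were (18.9%, with 10.6% of all tested genes), and below 50 CPM 5 of 61 (8.2%, with 2.73%). Higher calls numbered 0, 1 and 6 in the same order (0, 1.35 and 9.84%, with 2.63, 5.14 and 10.3% of all tested genes). The 5 lower calls below 50 CPM all lay from 10 to 50 CPM, where 5.14% of all tested genes were called lower.

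Of 14 cochaperones and exchange factors of BiP 2 fell and 0 rose (also 0 at an unadjusted p under 0.05 and with DESeq2). Below 50 CPM 1 of 8 fell (12.5%, with 2.73% of all tested genes), and from 50 to 200 CPM 1 of 6 (16.7%, with 10.6%). Of all tested genes at these levels 10.3 and 5.14% were called higher. DNAJB11, a J protein that hands clients to BiP, had 73.8, 73.5 and 72.6 CPM in the controls and 62.4 and 64.0 CPM in the treated libraries, and fell by 0.21 ± 0.05 on the log2 scale (edgeR adjusted p = 0.00625). DNAJC1, a membrane J protein, fell by 0.26 ± 0.06. Of 22 other disulfide isomerases and oxidases 5 fell and 1 rose. From 50 to 200 CPM 4 of 9 fell (44.4%, with 10.6% of all tested genes), and at 200 CPM or more 1 of 3 (33.3%, with 20.5%). Below 50 CPM 0 of 10 fell and 1 rose (10.0%, with 10.3%). PRDX4, the ER peroxiredoxin that passes oxidising power to isomerases, had 235 ± 9.03 CPM in the controls (SD, n = 3) and 189 ± 14 CPM after treatment (SD, n = 2), and fell by 0.32 ± 0.05 on the log2 scale (edgeR adjusted p = 5.43e-05). TMX2 (-0.29 ± 0.05), a membrane thioredoxin relative, and ERP29 (-0.27 ± 0.05), a lumenal folding factor, fell as well. QSOX1, a sulfhydryl oxidase, was the 1 that rose (0.23), and is named outside the rule. Its call ended without treated 1 (adjusted p = 0.111).

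Of 18 prolyl isomerases and other lumenal chaperones 3 rose and 1 fell. Below 50 CPM 2 of 9 rose (22.2%, with 10.3% of all tested genes) and 1 fell (11.1%, with 2.73%). From 50 to 200 CPM 1 of 6 rose (16.7%, with 5.14%). FKBP9, a prolyl isomerase, had 22, 23.1 and 21.7 CPM in the controls and 30.7 and 27.2 CPM in the treated libraries, a rise of 0.38 ± 0.07 (edgeR adjusted p = 0.000617). SERPINH1 (HSP47), the chaperone of collagen triple helices, rose by 0.23 ± 0.05, its controls at 86.9 ± 0.455 CPM (SD, n = 3) and its treated libraries at 102 ± 6.41 CPM (SD, n = 2). PPIC, a cyclophilin, rose by 0.24 ± 0.08. The SERPINH1 call ended without treated 1 (adjusted p = 0.0705), and the PPIC call without either treated library, control 1 or control 3 (adjusted p = 0.0576 to 0.211).

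Of 17 genes of the lectin cycle and glycan transfer 4 fell and 0 rose (also 0 at an unadjusted p under 0.05 and with DESeq2), and 12 had both treated libraries below all controls. The latter held for 5 of the 7 list genes with at least 200 CPM, where it held for 51.4% of all tested genes, and for 6 of the 8 from 50 to 200 CPM, where it held for 33.7%. Lower calls were 2 of the 7 (28.6%, with 20.5% of all tested genes) and 2 of the 8 (25.0%, with 10.6%). MOGS, the glucosidase that trims the outermost glucose, fell by 0.23 ± 0.06. RPN2 (-0.19 ± 0.05) and DDOST (-0.18 ± 0.05), subunits of the oligosaccharyltransferase, fell too. The RPN2 call ended without treated 1 (adjusted p = 0.129), and the DDOST call without control 1 or treated 1 (adjusted p = 0.0631 to 0.0958). At 200 CPM or more 1 of 9 translocon and signal peptidase genes fell (11.1%, with 20.5% of all tested genes). From 50 to 200 CPM 2 of 12 did (16.7%, with 10.6%), and below 50 CPM 2 of 2 (with 2.73%). Of all tested genes at these levels 2.63, 5.14 and 10.3% were called higher. Of all 23 translocon and signal peptidase genes 5 fell and 0 rose (also 0 at an unadjusted p under 0.05 and with DESeq2). They included the channel paralog SEC61A2 (-0.34 ± 0.07), the signal peptidase subunit SEC11C (-0.29 ± 0.06) and the translocon-associated SSR4 (-0.18 ± 0.05), whose call ended without control 1 or treated 2 (adjusted p = 0.0727 to 0.120). Of 31 genes of ER-associated degradation 17 lay from 50 to 200 CPM, where 1 fell (5.88%, with 10.6% of all tested genes). Below 50 CPM 0 of 11 fell, and at 200 CPM or more 0 of 3. Among all 31, 1 fell and 0 rose (0 with DESeq2, 1 at an unadjusted p under 0.05). It was UFD1, a cofactor of the segregase VCP (-0.19 ± 0.05), and its call ended without control 1 or treated 1 (adjusted p = 0.0757 to 0.0990).

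Of 17 genes for sensors, their processing and their partners 8 lay below 50 CPM, where 1 fell (12.5%, with 2.73% of all tested genes). From 50 to 200 CPM 2 of 9 fell (22.2%, with 10.6%). Of all tested genes at these levels 10.3 and 5.14% were called higher. Among all 17 sensor list genes 3 fell and 0 rose (also 0 at an unadjusted p under 0.05 and with DESeq2). They were EIF2S1 (-0.22 ± 0.05), the translation factor subunit that PERK phosphorylates, TRAF2 (-0.24 ± 0.07), an adaptor of IRE1, and RTCB (-0.15 ± 0.05), the ligase that joins the XBP1 exons. The TRAF2 call ended without control 1, control 3 or treated 2, and the RTCB call without control 1 or treated 2 (adjusted p = 0.0556 to 0.241). In the PERK, ATF4 and CHOP branch 3 of 19 rose and 3 fell, and the median was 0.03. The 3 rises were among 11 genes below 50 CPM, where 10.3% of all tested genes were called higher. From 50 to 200 CPM 2 of 7 fell, with 10.6% of all tested genes, and the other fall lay above that. Lower calls numbered 0 with library totals, without control 1 or against a fold of 1.2. They numbered 1 without control 2 or control 3, and with upper-quartile factors, cyclic loess or a filter of 5 CPM. Higher calls numbered 2 with DESeq2, cyclic loess or a filter of 5 CPM, 2 without control 2 or control 3, and 1 against a fold of 1.2. NUPR1, a small stress-induced chromatin protein, had 0.711, 0.737 and 0.809 CPM in the controls and 1.63 and 2.01 CPM in the treated libraries, and rose by 1.28 ± 0.26 on the log2 scale (edgeR adjusted p = 0.00114). ATF3, a stress-induced repressor, rose by 0.33 ± 0.07 (24.9 ± 1.19 CPM, SD, n = 3, against 31.4 ± 0.334 CPM, SD, n = 2, edgeR adjusted p = 0.00137). BCL2L11, the cell death protein BIM, fell by 0.20 ± 0.06, a call that ended without control 1, control 2 or treated 1 (adjusted p = 0.0651 to 0.130). Named outside the rule, ATF4 itself had 628, 601 and 615 CPM in the controls and 575 and 535 CPM in the treated libraries and fell by 0.15 ± 0.05 (edgeR adjusted p = 0.0255). ATF4 was not called with upper-quartile factors, a filter of 5 CPM or library totals (edgeR adjusted p = 0.0526 to 0.0867). Nor was it with cyclic loess (limma adjusted p = 0.241). The ATF4 call ended without control 1, control 3 or treated 2 (adjusted p = 0.0573 to 0.189).

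A list of 21 heat shock genes was set beside those of the ER. Most of their products are cytosolic, while HSPD1 and HSPE1 encode mitochondrial chaperones. Of the 21, 8 fell, HSPD1 among them (-0.14), and 2 rose, with a median of -0.14. The 11 genes of this list with at least 200 CPM had 6 called lower, where 20.5% of all tested genes at that level were. Lower calls over the 21 dropped to 4 without control 1, to 5 without control 3 or treated 1, to 4 with library totals, to 3 with cyclic loess, to 5 with a filter of 5 CPM and to 0 against a fold of 1.2. STIP1, which links Hsp70 to Hsp90, fell by 0.28 ± 0.04, and HSPA1B, an inducible Hsp70 with a near-identical copy that makes its counts uncertain, by 0.32 ± 0.05. The small heat shock protein gene HSPB1 rose (1.03 ± 0.08). Whether the share of lower calls differs between these genes and those of the ER was not tested.

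**Figure D4:**
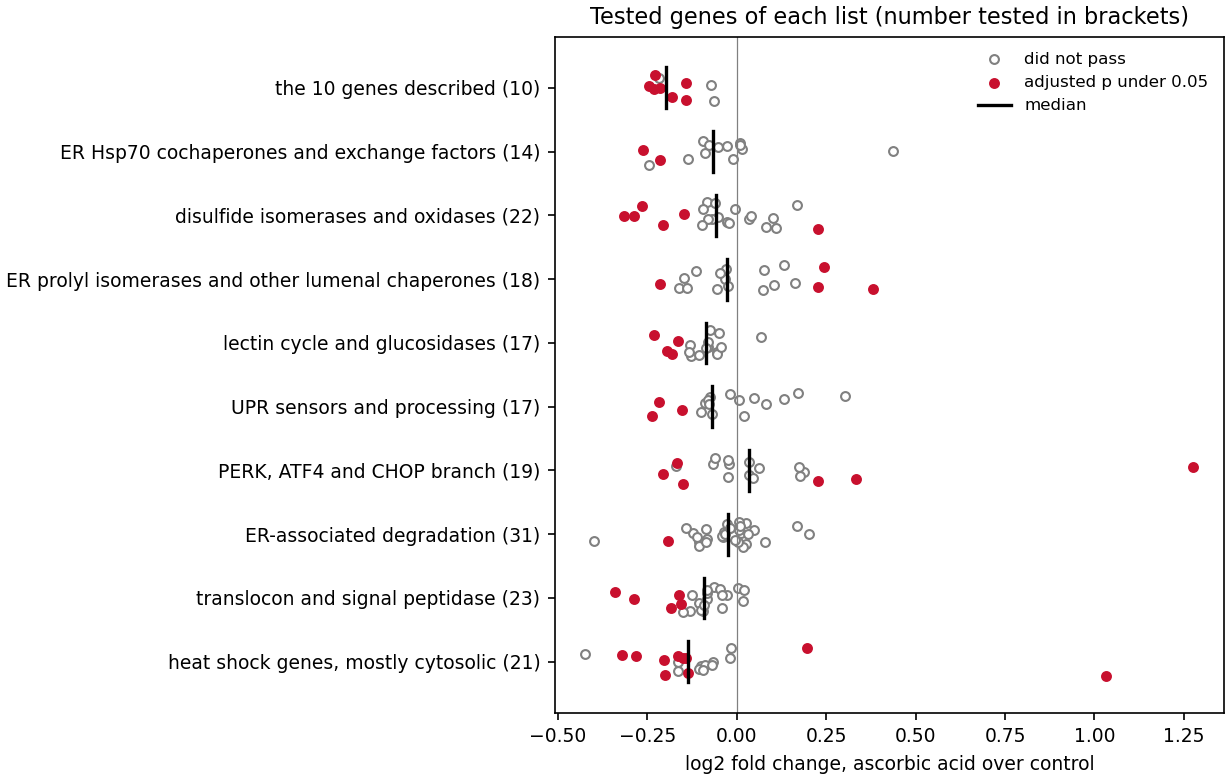
Log2 fold change (ascorbic acid over control) of each tested gene, by list, with red points for adjusted p under 0.05, open points for the rest and a black bar for the list's median. The 10 genes have a median of -0.20, the heat shock genes -0.14, and the other 8 lists lie between -0.09 and 0.03.

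Some markers of other cell types were called, most of them at low levels, where tested genes as a whole shifted upward. The median log2 change was 0.119 from 1 to 10 CPM, with 14.8% called higher. It was 0.209 below 1 CPM, with 5.08% called higher. The 9 fibroblast markers summed to 10.4 to 10.6 CPM in the controls and 19.3 to 20.6 CPM in the treated libraries, with 3 tested, COL3A1 and COL1A1 called higher and FAP at 0 counts in every library. The 6 keratinocyte and epithelial markers summed to 0.675 to 0.737 CPM and 1.57 to 2.24 CPM, with EPCAM, KRT17 and SFN tested and called higher, and KRT5 at 0. DESeq2 gave these 3 genes no adjusted p. The KRT17 call ended without any 1 of the 5 libraries, the SFN call without control 1, control 2 or treated 2, and the EPCAM call without treated 2 (adjusted p = 0.0573 to 0.529). Plasma and acinar cell markers summed to 11 to 13.1 CPM and 14.7 to 15 CPM, with SDC1 called and MZB1, PRSS1 and CELA3A at 0, and blood cell markers to 73.6 to 78.0 CPM and 80.8 to 88.7 CPM, with LCP1 called and CD3E and HBB at 0. DESeq2 called neither SDC1 nor LCP1, and in edgeR the SDC1 call ended without control 2, control 3 or either treated library and the LCP1 call without control 2, control 3 or treated 1 (adjusted p = 0.0687 to 0.345). Kidney tubule markers summed to 30.2 to 32.5 CPM and 23.2 to 23.5 CPM, with LRP2 called lower. The NEFM, NES, COL3A1, COL1A1 and LRP2 calls held without each library. Their part in the levels of the 10 genes was not tested.

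**Figure D5:**
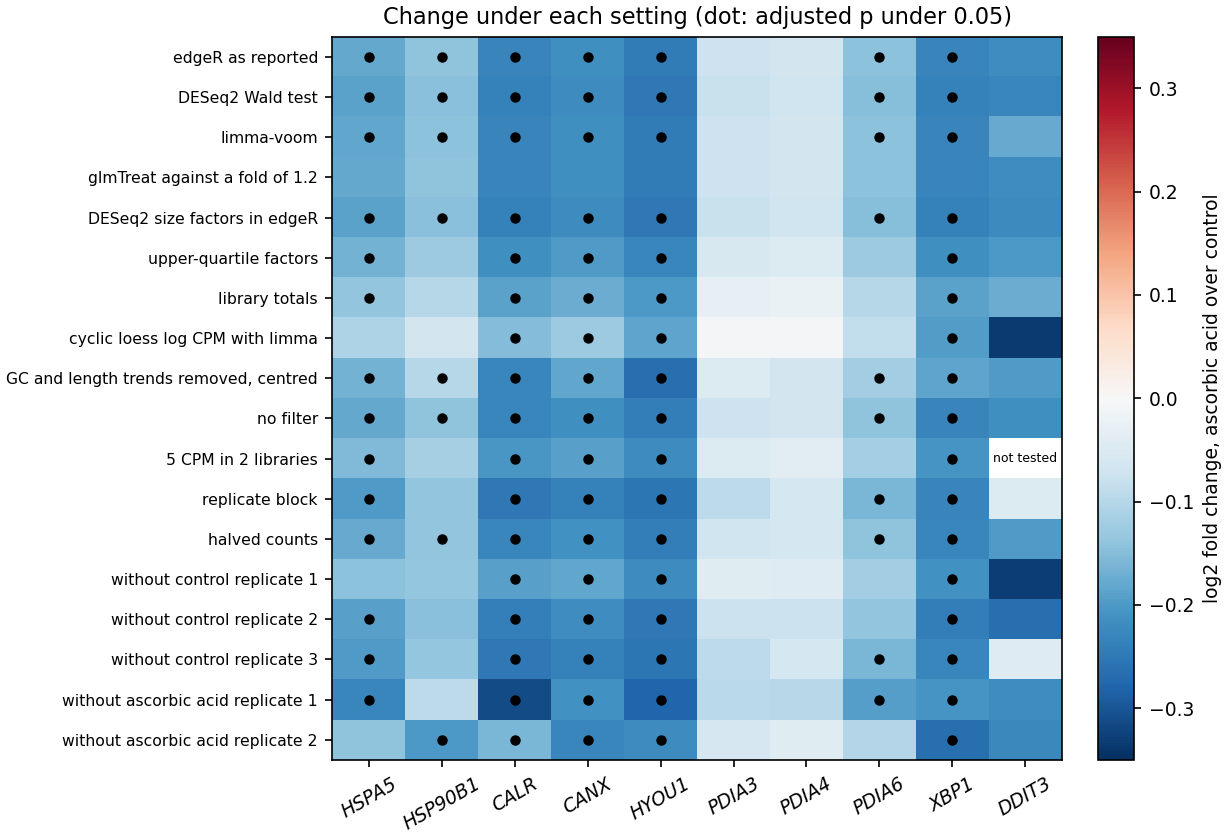
Log2 fold change (ascorbic acid over control, colour) of the 10 genes in the edgeR test reported and in 17 alternative settings, with a dot where adjusted p was under 0.05. CALR, CANX, HYOU1 and XBP1 carry a dot in every setting but the test against a fold of 1.2, and HSP90B1 and PDIA6 lose theirs in 10 and 8 settings.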

How the data were processed

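RNA was sequenced from 3 control and 2 ascorbic acid libraries of HEK293T cells. Per the labels' protocols, mRNA was captured on beads from total RNA. The deposited table holds whole-number counts of reads per gene symbol, without normalization. The submitters' processing notes name the hg38 (GRCh38) build and the tools Trimmomatic 0.39, STAR, featureCounts and DESeq2. For annotation, strand and multiple mapping, what the authors chose is not given in the sources used here. Columns were matched to samples by name, "con" as control and "vc" as vitamin C, and 0 columns were left over.

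Low counts were removed by filterByExpr and TMM factors were 0.984 to 1.03. The comparison used edgeR 4.0.16 (R 4.3.3; glmQLFit with its robust option, then glmQLFTest, two-sided) on 5 libraries with group as the only term, and p-values were adjusted by Benjamini-Hochberg over 15271 genes. Standard errors are the log2 fold change divided by the root of F. Replicates differed by more than counting noise (chi-square per degree of freedom 3.95 to 7.20) and were kept apart. Gene positions, lengths and exon overlaps came from GENCODE release 29 (GRCh38), and promoter windows from RefSeq. The genes, lists and tests were chosen with earlier results of these data known. Besides the 10 genes, up to 3 called genes of each list by smallest p were named, and up to 3 called markers. Alternatives used DESeq2 1.42.0, limma 3.58.1, mgcv 1.9.3, other scalings and filters, a replicate block, halved counts and each library left out. The planned protein features were not computed.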

Additional observations from a re-analysis of the deposited data

How the results depend on the processing

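Of the 10 genes, 7 were called lower with edgeR, DESeq2, limma-voom, DESeq2 size factors, no filter, halved counts or GC and length trends removed, and 0 were called higher in any setting. The count was 5 with upper-quartile factors, library totals or a filter of 5 CPM in 2 libraries (where DDIT3 was not tested), 4 with cyclic loess, 0 against a fold of 1.2, and 4 to 6 with 1 library left out (4 without control 1). The median over the 10 genes (-0.198) was -0.155 with library totals and with the 5 CPM filter (which leaves out DDIT3), -0.117 with cyclic loess, and -0.208 to -0.163 with 1 library left out. No sign turned in any setting for any of the 10 genes or the other genes named by the rule. HSPA5 also lost its call with cyclic loess (adjusted p = 0.0948). HSP90B1 and PDIA6 also lost theirs with cyclic loess, upper-quartile factors, library totals and the 5 CPM filter. Over all genes 2182 were called, 286 against a fold of 1.2, 1426 with cyclic loess and 1180 to 2047 with 1 library left out (1180 without control 1). Lower calls were 40.3% of all calls, and 18.5% with library totals. The cause of these differences was not tested. A lone treated library, where one was left out, was taken to vary as the controls do. Deviations of same-numbered libraries from their group means had correlations of 0.0247 and 0.0109. With 2 treated libraries these deviations mirror each other, so the check cannot decide whether libraries were paired. With the replicate number as a block 1880 genes and 6 of the 10 were called, HSP90B1 missing (edgeR adjusted p = 0.0511). DDIT3 had the fewest counts, 151 to 207 a library, and its log2 change (-0.22) was -0.20 with all counts halved and -0.05 without control 3.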

Other observations

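Exact ERSE or ERSE-II matches are rare, and the genes that hold one were counted over the whole promoter table, a list made after the values above were seen. Of the 11516 tested genes with a promoter window 6.21% were called lower and 8.83% higher. Of the 32 tested genes with either element 9 were called lower and 3 higher. Without the 10 genes described, 25 were left, of which 2 were called lower and 3 higher, with a median log2 fold change of 0.021. The 2 lower were SETD3, an actin histidine methyltransferase gene (-0.21 ± 0.05, edgeR adjusted p = 0.00943), and RUVBL2, an ATPase of chromatin remodelling complexes (-0.16 ± 0.05, 0.0304). The 3 higher were TRIM5, a restriction factor (0.54 ± 0.10, 0.000231), NAV2 (0.42 ± 0.13, 0.0274) and TMEM120A (0.31 ± 0.10, 0.0318). For ERSE alone, 11 tested genes outside the 10 held a match, of which 0 were called lower and 2 higher.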
